A study of Oryza sativa with 4 samples.

Results

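The OsLEC1 peaks on the arms of rice chromosomes 8 and 9 are described here. They were taken from the peak list of OsLEC1-ChIP by the position of the summit alone, where the summit is the base of a peak with the highest ChIP coverage. On chromosome 8, summits above 1 Mb were kept unless they lay within 2 Mb of the centromere, that is between 10.9 and 14.9 Mb. On chromosome 9, summits from 12 Mb on were kept, and on both chromosomes a summit had to lie more than 1 Mb before the last one. This gave 2515 of the 27452 OsLEC1 peaks, or 9.16%. The chromosome 8 short arm, from 1 to 10.9 Mb, held 416 of them, and the chromosome 8 long arm, from 14.9 to 27.394033 Mb, held 984. The chromosome 9 arm, from 12 to 21.933986 Mb, held 1115. The remaining peaks of chromosome 8 (1686 in all) and chromosome 9 (1517 in all) served for comparison, together with those of the other 10 chromosomes. All positions are on the IRGSP-1.0 assembly and count from 1.

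The study looked for genomic sites bound by OsLEC1 in rice callus, an undifferentiated tissue that was induced from seeds for 30 days on medium with 10 μM of the auxin 2,4-D. The labels give 4 groups with 1 library each, all in the Nipponbare background: NIP-ChIP and NIP-input from the untransformed wild type, and OsLEC1-ChIP and OsLEC1-input from 35S:3*FLAG-OsLEC1, for which the study names a single transgenic line, 2#. The viral 35S promoter drives the tagged protein strongly in most plant cells, also where the native gene is silent, and the native copy of OsLEC1 is present in both genotypes. An anti-DDDDK antibody, which recognises the FLAG tag, was used on both genotypes, and the wild type carries no tag. Since there was no second library in any group, no value below has a spread between replicates and no test between genotypes was made. For the same reason, intervals at 95% cover counting error only. Those of pileups also treat fragments as independent molecules, which fragments copied by PCR are not.

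LEC1 proteins are NF-YB subunits of the trimeric transcription factor NF-Y, in which the NF-YA subunit contacts CCAAT boxes. In Arabidopsis, LEC1 is a master regulator of embryo identity and seed maturation, and its overexpression induces embryo-like growth in vegetative tissue. The genome of the common ancestor of the grasses was duplicated as a whole, and large blocks with similar gene order remain in rice. The long arm of chromosome 8 and chromosome 9 share such a block, so that many genes of the former have a related copy on the latter. Chromatin near rice centromeres is rich in repeats and poor in genes, whereas the outer parts of the arms hold most genes.

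The 3 arms differed in the number of peaks per length. The chromosome 8 short arm had 42.0 peaks per Mb (exact Poisson interval 38.1 to 46.3), the chromosome 8 long arm 78.8 (73.9 to 83.8) and the chromosome 9 arm 112 (106 to 119). The density was thus lowest on the short arm and highest on chromosome 9, and none of the 3 intervals overlapped. Between the arms that share the duplicated block, chromosome 9 had 1.43 times as many peaks per Mb as the chromosome 8 long arm (exact conditional binomial interval 1.31 to 1.55). Between the arms of chromosome 8, the long arm had 1.87 times the density of the short arm (1.67 to 2.11). These intervals treat peaks as placed independently, which the uneven counts along the arms described below do not bear out. Peaks covered 1.81% of the bases of the short arm, 3.66% of the chromosome 8 long arm and 5.62% of the chromosome 9 arm.

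The other 10 chromosomes together had 75.5 peaks per Mb (74.6 to 76.5) between their first and last summits. Relative to them, the density was 0.556 on the chromosome 8 short arm (0.504 to 0.613), 1.04 on the chromosome 8 long arm (0.977 to 1.11) and 1.49 on the chromosome 9 arm (1.40 to 1.58). The arms leave out the centromere of chromosome 8, the inner part of chromosome 9 and the chromosome ends, whereas the other chromosomes were taken whole, so part of these ratios is set by the rule and they are given as a description. The parts of chromosomes 8 and 9 left out by the rule also differed among themselves. The 4 Mb around the centromere of chromosome 8 held 28.8 peaks per Mb (23.7 to 34.5), while the last Mb held 102 peaks (83.2 to 124). On chromosome 9, the first 12 Mb held 25.8 peaks per Mb (23.0 to 28.8). The border at 12 Mb lies at a step in density that was known when the border was drawn, so the contrast of the chromosome 9 arm with the part before it also describes that choice.

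**Figure D1:**
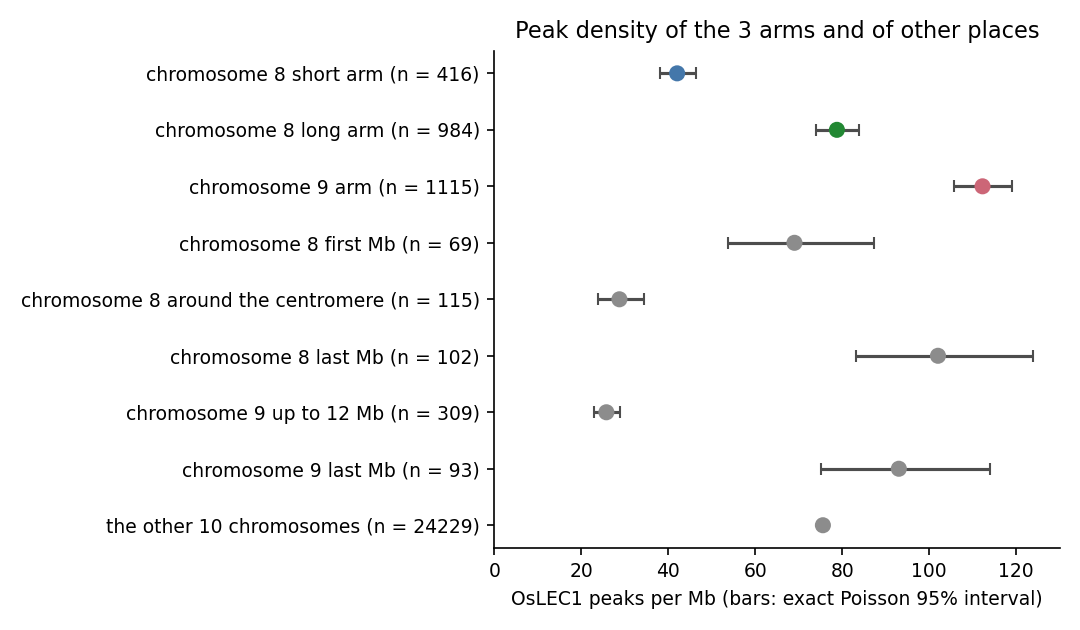
Peaks per Mb (x axis) in the 3 arms (coloured points), in the parts of chromosomes 8 and 9 outside them and in the other 10 chromosomes (grey points), with exact Poisson 95% intervals as bars and the number of peaks in brackets. The arms stand apart at 42.0, 78.8 and 112 peaks per Mb, and the long arm of chromosome 8 lies next to the 75.5 of the other chromosomes.

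Along each arm the peaks were counted in complete bins of 1 Mb from the distal border towards the centromere. On the chromosome 8 short arm, 9 bins held 18 to 65 peaks with a median of 46. The outermost bin, from 1000001 to 2000000, was the densest with 65 peaks (50.2 to 82.8), and the bin from 7000001 to 8000000 was the sparsest with 18 (10.7 to 28.4). In the 12 bins of the chromosome 8 long arm the count was 37 to 150 (median 83.5). Its densest bin, from 23394034 to 24394033, held 150 peaks (127 to 176), and the sparsest, from 15394034 to 16394033, held 37 (26.1 to 51.0). In the 9 bins of the chromosome 9 arm it was 65 to 151 (median 120). The densest of them, with 151 peaks (128 to 177), lay from 16933987 to 17933986, and the sparsest, with 65 (50.2 to 82.8), from 12933987 to 13933986. The sparsest was the innermost complete bin on the chromosome 8 long arm and on chromosome 9, and the bin 7 of 9 from the distal border on the short arm. The innermost stretch of each arm, which fills no complete bin, had 37.8 peaks per Mb on the short arm (34 peaks), 34.4 on the chromosome 8 long arm (17 peaks) and 99.6 on chromosome 9 (93 peaks). The variance across bins was 6.07 times the mean on the short arm, 15.1 times on the chromosome 8 long arm and 6.69 times on chromosome 9.

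The difference between the duplicated arms depended on how far towards the centromere they were followed. In the outermost 7 Mb, the chromosome 8 long arm had 104 peaks per Mb (96.6 to 112) and the chromosome 9 arm had 125 (117 to 134), a ratio of 1.20 (1.09 to 1.33). Closer to the centromere, the remaining 5.49 Mb on chromosome 8 had 46.6 peaks per Mb (41.1 to 52.7), and the remaining 2.93 Mb on chromosome 9 had 81.1 (71.1 to 92.1), a ratio of 1.74 (1.45 to 2.09). The inner stretches differ in length and in the distance they span, so this second ratio compares unlike places. On the short arm, the outermost 7 Mb had 43.9 peaks per Mb (39.1 to 49.0) and the rest 37.6 (30.9 to 45.3). The outer part thus had 2.23 times the density of the inner part on the chromosome 8 long arm (1.93 to 2.58) and 1.54 times on chromosome 9 (1.34 to 1.79), while the value on the short arm, 1.17, had an interval that includes 1 (0.935 to 1.47).

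Bin by bin, 9 bins at equal distance from the distal border could be set side by side on the duplicated arms. Chromosome 9 had more peaks in 7 of the 9. The outermost pair held 104 peaks on chromosome 8 and 112 on chromosome 9, and the pair next to it 91 and 134. The third pair was close to equal, with 103 and 101 peaks. In the fourth pair chromosome 8 had more, 150 against 135, and in the one after it chromosome 9 did, 151 against 104. The interval of the ratio lay above 1 in 4 of the 9 pairs and below 1 in 0 of them. Both arms reached their highest count between 3 and 5 Mb from the distal border. Further in, the counts of complete bins were lower on both, but on chromosome 9 the innermost stretch, with 99.6 peaks per Mb (80.4 to 122), had a higher value than the bin of 65 next to it. Equal distance from the border does not mean that the bins hold matching genes, since positions of duplicated genes were not used here.

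**Figure D2:**
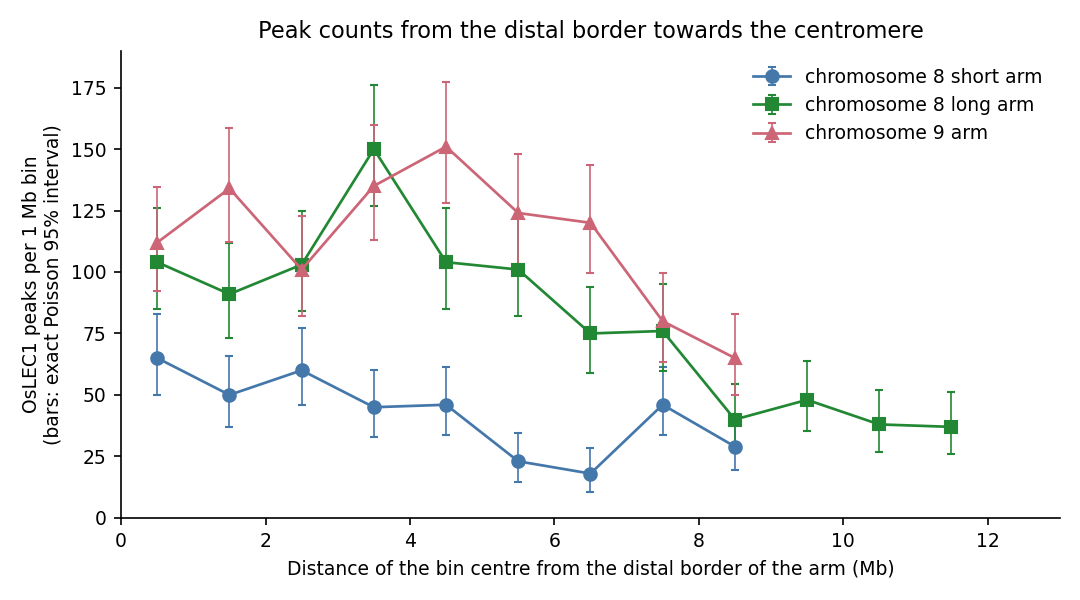
Peaks in each complete 1 Mb bin (y axis, with exact Poisson 95% intervals) against the distance of the bin centre from the distal border of the arm in Mb (x axis), for the chromosome 8 short arm (circles), the chromosome 8 long arm (squares) and the chromosome 9 arm (triangles). The long arm of chromosome 8 runs from 150 peaks at its densest to 37 near the centromere, the chromosome 9 arm from 151 to 65, and the short arm stays between 18 and 65.

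Stretches of at least 100 kb between neighbouring summits numbered 12 on the short arm, 11 on the chromosome 8 long arm and 1 on the chromosome 9 arm. The longest, on the short arm, ran for 491 kb, from the summit at 6765951 to that at 7257270, and the next for 407 kb, from 6316395 to 6723413. Both lie in the same part of the chromosome 8 short arm, and a further stretch of 204 kb began at 7348115. On the chromosome 8 long arm the longest stretch was 193 kb, from 16096534 to 16289284. On the chromosome 9 arm it was 106 kb, from 13432596 to 13538578. Multiply mapped reads had been discarded according to the methods, and the share of these stretches to which reads map uniquely was not tested.

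In contrast to their number, the fold of the peaks differed little between the arms. The fold, as deposited by the authors, compares coverage at the summit with the local background expected from the input, each increased by 1 fragment. Its median was 4.95 on the chromosome 8 short arm (interval from order statistics 4.69 to 5.22), 5.12 on the long arm (4.98 to 5.26) and 4.97 on the chromosome 9 arm (4.80 to 5.11), against 5.13 on the other 10 chromosomes (5.10 to 5.20). The folds ranged from 2.01 to 31.9 on the short arm, from 2.01 to 27.9 on the long arm and from 2.09 to 27.7 on chromosome 9. Within the arms, the median fold of a 1 Mb bin stayed between 4.22 and 5.47 on the short arm, between 4.69 and 5.99 on the long arm and between 4.68 and 5.45 on chromosome 9. In the densest bins it was 5.21, 5.29 and 4.96. The densest bin thus did not have the highest median fold in any arm.

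The pileup, which counts ChIP fragments at the summit, was solved for each peak from its fold and its −log10 p-value. Its median was 35 on the short arm (34 to 37), 37 on the chromosome 8 long arm (36 to 39) and 40 on the chromosome 9 arm (38 to 41), in the same order as the densities. The median background was 5.76 fragments on the short arm (5.72 to 6.68) and 6.68 on the long arm (6.22 to 6.68), with overlapping intervals. On chromosome 9 it was also 6.68 (6.68 to 6.91). Many backgrounds lie on steps of whole input fragments, as given below, so equal medians can hide a shift. The lower quartile was 4.77 fragments on the long arm and 5.32 on chromosome 9, while the upper quartile was 8.59 on both. The lowest possible background, 3.49 fragments, equals the mean coverage of OsLEC1-ChIP and was reached by 7.69% of the peaks on the short arm (exact Clopper-Pearson interval 5.32 to 10.7%), by 4.07% on the long arm (2.92 to 5.49%) and by 2.24% on chromosome 9 (1.46 to 3.29%). At this floor were 4.52% of all 27452 OsLEC1 peaks, below the interval of the short arm and above that of chromosome 9. Above this floor, the background equalled the input coverage at the summit, counted in whole fragments and scaled by 0.954, within 0.001, for 65.4% of all peaks of the short arm and 66.4% of those of each of the other arms. These input fragments numbered 4 to 21, with a median of 7 on the short arm and 8 on the others. The part of the input in the differences between the arms was not tested.

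**Figure D3:**
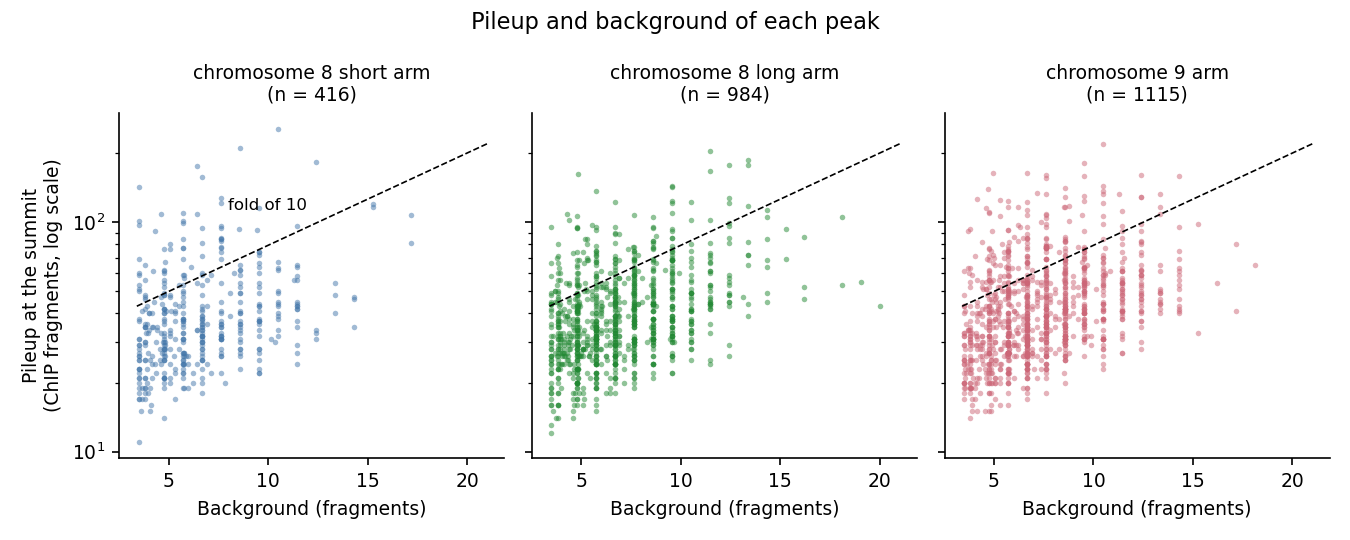
Pileup at the summit (y axis, ChIP fragments on a log scale) against the background (x axis, fragments) for every peak of the 3 arms, 1 panel per arm, with the dashed line at a fold of 10. The clouds have nearly the same shape in the 3 panels, with medians of 35, 37 and 40 fragments, and the vertical stripes are backgrounds made of whole input fragments.

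A fold of at least 10 was used to single out strong peaks, and 8.70% of all 27452 peaks passed it. On the chromosome 8 short arm 42 peaks did so, or 10.1% (7.37 to 13.4%), on the long arm 83, or 8.43% (6.77 to 10.3%), and on the chromosome 9 arm 102, or 9.15% (7.52 to 11.0%). The share in all peaks lay inside each of these intervals. At a limit of 8, chosen after the data were seen, the shares were 18.5%, 16.6% and 17.0%, against 17.2% of all peaks. Per length, strong peaks followed the density of all peaks, with 4.24 per Mb on the short arm (3.06 to 5.73), 6.64 on the long arm (5.29 to 8.24) and 10.3 on chromosome 9 (8.37 to 12.5). Chromosome 9 had 1.55 times as many strong peaks per Mb as the chromosome 8 long arm (1.15 to 2.09). Their counts per bin were uneven, as were those of all peaks. On the long arm of chromosome 8, the bin from 23394034 to 24394033 held 18 among 150 peaks and that from 22394034 to 23394033 held 14 among 104. From 16394034 to 17394033, 1 was found among 38 peaks. The sparse bin from 18394034 to 19394033 held 8 among 40. On chromosome 9, the bin from 15933987 to 16933986 held 20 strong peaks among 124 and the one from 16933987 to 17933986 held 16 among 151.

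The weak and strong ends of the list were filled to a similar degree in the 3 arms. A −log10 q-value below 5 was found for 7.45% of the peaks on the short arm (5.12 to 10.4%), 7.32% on the long arm (5.77 to 9.13%) and 5.74% on chromosome 9 (4.45 to 7.27%). At 50 or more were 9.13% on the short arm (6.55 to 12.3%), 6.20% on the long arm (4.77 to 7.89%) and 8.70% on chromosome 9 (7.11 to 10.5%). The long arm of chromosome 8 had the smallest share in this top class, and its interval overlapped those of both other arms. In the class from 20 to 50 the short arm had 22.4% (18.4 to 26.7%), the long arm 29.0% (26.1 to 31.9%) and chromosome 9 27.5% (24.9 to 30.3%). On the other 10 chromosomes, 6.66% of the peaks were below 5, 28.2% from 20 to 50 and 8.04% at 50 or more. The interval of the short arm from 20 to 50 and that of the long arm at 50 or more lay below these shares.

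The strongest peak of the 3 arms was located on the chromosome 8 short arm, from 3358234 to 3359188. Its fold of 31.9 ranked 14 in the whole list and came from 142 fragments (exact Poisson interval 120 to 167) over the floor of 3.49. Another summit lay 2.0 kb away. The second on this arm, from 8714339 to 8715017, reached 23.8, and 176 fragments (151 to 204) stood over a background of 6.45. The third, from 8116072 to 8116570, reached 22.7 with 101 fragments (82.3 to 123), again over the floor. The background was thus the lowest possible in the first and the third of these peaks. No −log10 q-value on the arm exceeded the 245 of the peak from 5417697 to 5418463, where the pileup was 255 fragments (225 to 288), the background 10.5 and the fold 22.3. The last of the 5, from 3664638 to 3665411, had 210 fragments (183 to 240) over 8.59 and a fold of 22.0. Although the short arm held 1.52% of all peaks, these 5 were all among the 100 of highest fold, a count that was looked at after the values were seen.

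On the chromosome 8 long arm, the strongest peak lay near the distal border, from 27295508 to 27296808. Its fold was 27.9, rank 35 in the whole list, from 162 fragments (138 to 189) over 4.84, and its −log10 q-value of 177 was the highest of this arm. It was the only peak of the long arm among the 100 of highest fold, while this arm held 3.58% of all peaks. The next peaks were found from 23027862 to 23028418 with a fold of 21.4, from 23803447 to 23804147 with 20.7 and from 23941732 to 23942433 with 19.2. These 3 lie within 1 Mb of each other, in the dense outer part of the arm. Their pileups were 95 (76.9 to 116), 108 (88.6 to 130) and 102 fragments (83.2 to 124), which did not differ beyond counting error. From 19084881 to 19085507, 136 fragments (114 to 161) gave a fold of 20.4, and the nearest summit was 14.1 kb away.

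On the chromosome 9 arm, the highest fold was 27.7, rank 36 in the whole list, in the peak from 17868393 to 17869113. Its pileup was 163 fragments (139 to 190) over 4.93, and the nearest summit was 11.8 kb away. The arm held 3 of the 100 peaks of highest fold and 4.06% of all peaks. A pair of strong peaks lay near each other at the inner end of the arm, from 12271342 to 12272556 with a fold of 24.7 and from 12215695 to 12216595 with a fold of 24.6. They had 126 (105 to 150) and 139 fragments (117 to 164), so that their order is not settled. The next, from 17244385 to 17245562 and from 18576473 to 18577142, had folds of 21.4 and 20.7. The highest −log10 q-value of the arm, 196, belonged to another peak, from 12743924 to 12745456, with 219 fragments (191 to 250) over 10.5 and a fold of 19.1. The peaks of highest fold on the duplicated arms had nearly equal pileups, 162 and 163 fragments, and nearly equal folds. The highest pileups were 203 fragments on the chromosome 8 long arm and 219 on chromosome 9. Whether any of these peaks lie at related genes was not tested.

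At the other end, the lowest fold was 2.01 on both arms of chromosome 8. It belonged to the peak from 8978622 to 8979153 on the short arm and to that from 26130953 to 26131214 on the long arm, each with 24 fragments (15.4 to 35.7) over 11.4. On chromosome 9 it was 2.09, from 13583400 to 13584189, with 23 fragments (14.6 to 34.5) over 10.5. In all 3 the background was higher than the median of the arm.

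The width of the peaks followed the same order as their density. The median width was 371.5 bp on the chromosome 8 short arm (355 to 383), 396.5 bp on the long arm (384 to 409) and 422 bp on chromosome 9 (405 to 438), against 410 bp on the other 10 chromosomes (407 to 412). The interval of the short arm did not overlap that of either other arm, while those of the long arm and chromosome 9 overlapped slightly. A width of 1000 bp or more was found for 5.21% of all peaks of the series. On the short arm 8 peaks were that wide, or 1.92% (0.834 to 3.75%), on the long arm 36, or 3.66% (2.58 to 5.03%), and on the chromosome 9 arm 63, or 5.65% (4.37 to 7.17%). The shares of both arms of chromosome 8 were below that in all peaks, which lay above their intervals, and the share on chromosome 9 was close to it. At a limit of 800 bp, chosen after the data were seen, the shares were 5.29%, 7.52% and 11.3% in the same order, against 10.2% of all peaks. Per length, chromosome 9 had 2.20 times as many wide peaks as the chromosome 8 long arm (1.44 to 3.41).

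The width was also compared among peaks of similar strength, since wide peaks tend to have a high −log10 q-value. From 5 to 10, the median width was 324.5 bp on the short arm (299 to 342), 307 bp on the long arm (295 to 323) and 317 bp on chromosome 9 (310 to 338). From 10 to 20, it was 342 bp (330 to 359), 366 bp (351 to 389) and 369 bp (354 to 388). From 20 to 50, it was 451 bp (415 to 484), 499 bp (456 to 526) and 521 bp (498 to 548). At 50 or more, it was 587 bp (537 to 679), 568 bp (544 to 628) and 670 bp (623 to 762). The intervals of the 3 arms overlapped in each of these classes except that from 20 to 50. There, that of chromosome 9 lay above that of the short arm and overlapped that of the long arm. At 50 or more, the median of chromosome 9 was close to the 675 bp (663 to 689) of the other 10 chromosomes. The interval of the chromosome 8 long arm lay below that value and its interval, and that of the short arm overlapped it. Each interval carries 1 summit, so merged neighbouring sites and single wide sites cannot be told apart.

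**Figure D4:**
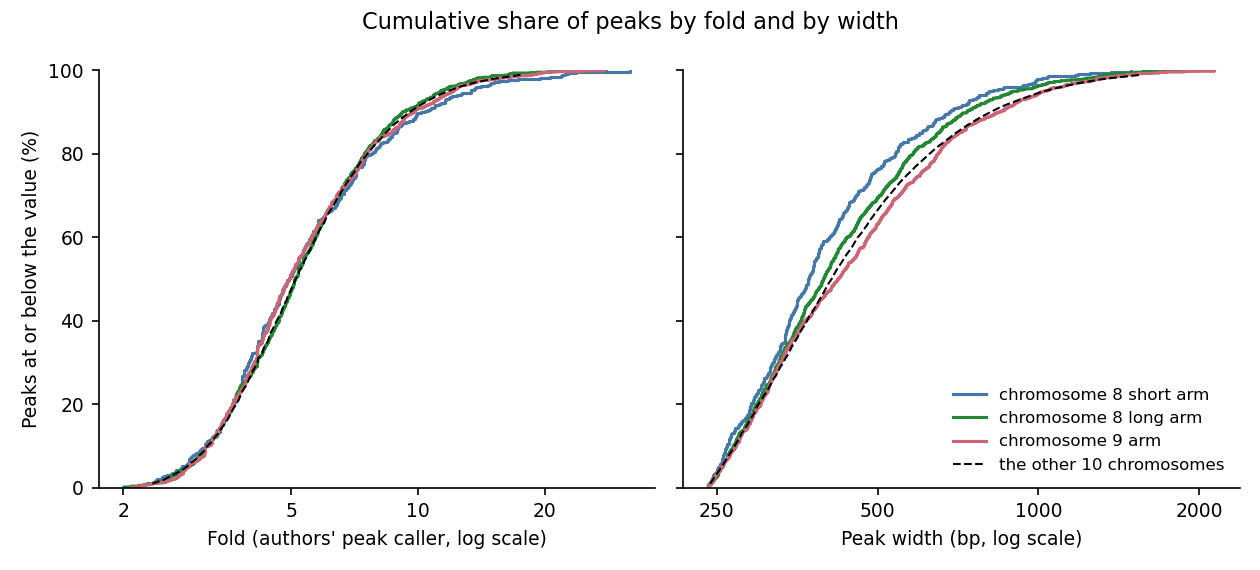
Cumulative share of peaks (y axis, %) at or below a given fold (left) and a given width in bp (right), both on log axes, for the 3 arms and, as a dashed line, for the other 10 chromosomes. The curves of fold lie on each other, whereas those of width separate, with the short arm narrowest (median 371.5 bp) and chromosome 9 widest (median 422 bp).

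The widest peak of the 3 arms, from 18200179 to 18202315 on chromosome 9, was 2137 bp long. Its fold was 12.2, and 116 fragments (95.9 to 139) covered the summit, which lay at 18200403 close to its left end. On the chromosome 8 long arm the widest peak reached 1991 bp, from 24342625 to 24344615, with a fold of 13.5 and a summit at 24344342 close to its right end. On the short arm it was 1493 bp, from 2028342 to 2029834, with a fold of 7.17 and 41 fragments (29.4 to 55.6). All 3 were over 3 times as wide as the median of their arm, and in the first 2 the summit lay far from the middle.

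Summits were often close to each other. Among the distances from a summit to the next, 12.5% were below 2 kb on the short arm (9.50 to 16.1%), 16.9% on the chromosome 8 long arm (14.6 to 19.4%) and 21.2% on the chromosome 9 arm (18.8 to 23.7%), against 18.3% on the other 10 chromosomes (17.8 to 18.8%). At a limit of 1 kb, the shares were 4.58% (2.78 to 7.06%), 4.68% (3.45 to 6.19%) and 6.01% (4.69 to 7.58%), with overlapping intervals. At 5 kb, they were 28.7% (24.4 to 33.3%), 41.2% (38.1 to 44.4%) and 48.7% (45.8 to 51.7%), with none overlapping. The separation of the arms thus depended on the limit, and at 1 kb none could be seen. The median distance was 10.8 kb, 6.25 kb and 5.11 kb in the same order. Even spacing of the same peaks would give 23.8 kb, 12.7 kb and 8.91 kb. A median below the even distance also arises when peaks are placed at random, so it does not show clustering. A denser arm has closer summits by its number of peaks alone, and no test of clustering was made. When summits under 2 kb apart were counted once, the short arm had 36.8 groups per Mb, the long arm 65.5 and chromosome 9 88.5.

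Groups of at least 3 summits, each under 2 kb from the next, numbered 6 on the short arm, 24 on the long arm and 35 on chromosome 9. They held 5.29% (3.34 to 7.90%), 7.83% (6.22 to 9.68%) and 10.5% (8.76 to 12.4%) of the peaks. A denser arm has more peaks in such groups by its number of peaks alone. The share over all peaks of the series was not taken. The largest groups had 5 summits in each arm. On the chromosome 8 long arm this group ran from 22616285 to 22620753 with folds of 3.64, 4.93, 5.17, 7.94 and 4.61. On chromosome 9 it ran from 17771250 to 17777294 with folds of 2.35, 9.04, 4.38, 4.91 and 4.04. On the short arm, 2 groups had 5 summits, and the first of them, from 1028984 to 1034857, had folds of 5.40, 3.82, 7.12, 5.22 and 8.66. None of the summits in these 3 groups reached a fold of 10. The tightest 3 summits of the short arm lay within 1341 bp at 1086835, 1087553 and 1088176, those of the long arm within 1431 bp at 24589139, 24589778 and 24590570, and those of chromosome 9 within 1578 bp at 15886852, 15887660 and 15888430.

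**Figure D5:**
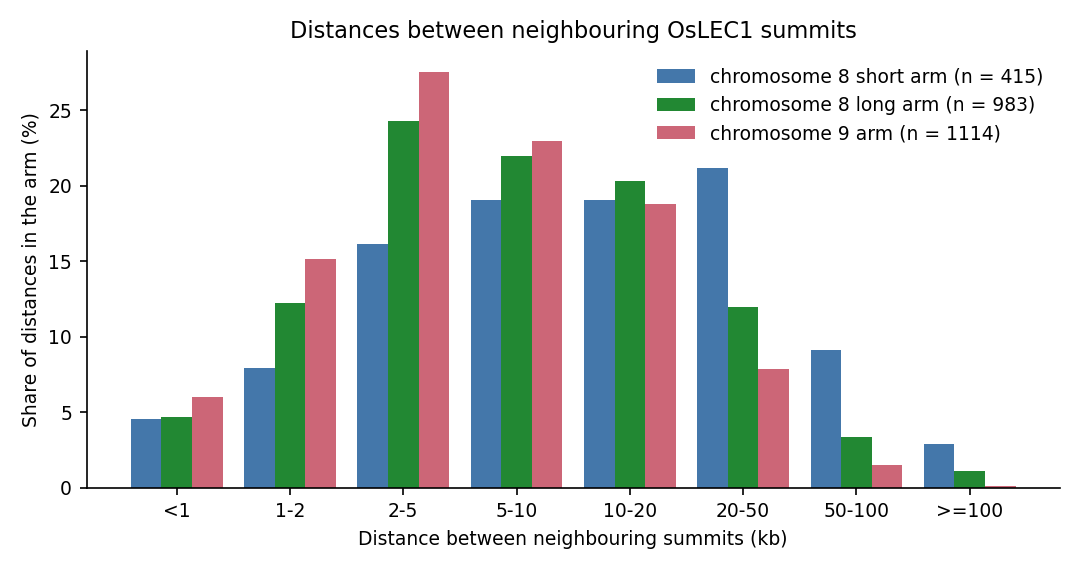
Share of the distances between neighbouring summits (y axis, % of the distances in the arm) in classes of distance in kb (x axis), with 415 distances on the chromosome 8 short arm, 983 on the chromosome 8 long arm and 1114 on the chromosome 9 arm. Distances from 2 to 5 kb make up 16.1%, 24.3% and 27.6%, and those from 20 to 50 kb make up 21.2% on the short arm and 7.90% on chromosome 9.

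The peaks next to the borders of the arms were ordinary ones. At 10.9 Mb, the last summit inside the short arm was at 10899974 with a fold of 3.81, and the first outside was at 10922192 with a fold of 9.12. At 14.9 Mb, the summit inside the long arm was at 14909913 with a fold of 4.88, and that outside was at 14877507 with a fold of 4.43. At 12 Mb on chromosome 9, the summit inside was at 12032649 with a fold of 4.46, and that outside was at 11994716 with a fold of 2.50. At the distal borders, the summits at 1006948, 27391350 and 21926121 were inside, with folds of 8.88, 7.57 and 9.85, and those at 992948, 27396097 and 21938639 were outside, with folds of 4.30, 4.63 and 7.81.

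In the wild type control, 0 peaks were listed on the 3 arms, and both of its 2 peaks were on chromosome 11. Over the 32.3 Mb of the arms together, a count of 0 allows up to 3 peaks, or 0.0928 per Mb. For NIP-ChIP, the coverage per base could not exceed 0.842 fragments on average, which is 24.1% of the OsLEC1-ChIP value. This bound comes from the listed peaks and not from read counts, so a difference in depth between the genotypes was not measured directly. Effects of depth and of the tag on the number of peaks cannot be told apart here.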

How the data were processed

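ChIP and input DNA of both genotypes were sequenced by the authors, and a peak list was deposited for each ChIP library. According to the methods, reads were aligned to IRGSP-1.0 with Bowtie2 (2.3.4.1 in the submitters' processing notes), multiply mapped reads were discarded, and MACS2 (2.1.2 in the notes) called peaks against the input of each genotype at a q-value of 0.01. An IDR filter for replicates is also named, but each group had 1 library.

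The fold (a ratio), the p-value and q-value (both as −log10) and the score are as deposited by the authors. Pileup and background were solved from fold and −log10 p-value, with a tolerance of 0.001, for 100% of the peaks, by a procedure that was checked on known values. Densities were taken over the length between the borders of each arm. Python 3.11.15, numpy 2.4.6, pandas 2.3.3, scipy 1.17.1 and matplotlib 3.10.9 were used.

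Peaks for individual description were, in each arm, the 5 of highest fold, the widest, those of highest −log10 q-value and lowest fold, the most isolated, the tightest and largest groups and those next to the borders. The members and lists were chosen with earlier results of these data known. Genes, duplicated gene pairs and motifs at summits were planned but not analysed here, since no sequence or annotation of IRGSP-1.0 was used.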

Additional observations from a re-analysis of the deposited data

How the results depend on the processing

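The order of the 3 arms in peaks per Mb was the same in the deposited list and in the 6 other settings tried. The setting that counts close summits once and the other limits for fold and width were chosen after the data were seen. With a −log10 q-value limit of 10, the density of the chromosome 8 short arm was 27.0 per Mb, and it was 36.8 when summits under 2 kb apart were counted once. For the chromosome 8 long arm these values were 55.1 and 65.5, with 73.0 at a limit of 5 and 104 in the distal 7 Mb. For the chromosome 9 arm they were 77.5 and 88.5, with 120 for the median of 1 Mb bins and 125 in the distal 7 Mb. Stricter limits and joint counting lower a density by construction. The ratio of chromosome 9 to the chromosome 8 long arm was 1.20 in the distal 7 Mb, and that of the long to the short arm of chromosome 8 was 2.37. All other ratios stayed inside the counting intervals, between 1.35 and 1.45 for the former and between 1.78 and 2.04 for the latter. At a limit of 10, the medians of fold, pileup and width were higher in all 3 arms (fold 6.02 to 6.41), and those of background stayed inside their intervals. With 1 library per group, no replicate could be left out. No paired analysis was possible because a single library stood for each group. Settings for gene starts, duplicated gene pairs and motifs were not run, since IRGSP-1.0 sequence and annotation were not used here.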

Other observations

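Isolated peaks, more than 20 kb from any other summit of the chromosome, made up 10.6% of the chromosome 8 short arm (44 peaks, exact 95% interval 7.79 to 13.9%), 4.27% of the long arm (42 peaks, 3.09 to 5.73%) and 1.35% of the chromosome 9 arm (15 peaks, 0.755 to 2.21%). Their median fold was 4.85, 5.65 and 4.17, against 4.96, 5.11 and 4.98 for the other peaks of the same arm. Isolation thus went with no common direction of fold. A sparser arm has a larger share of isolated peaks by its number of peaks alone. The share over all peaks of the series was not taken. The most isolated peak of the short arm, from 9951284 to 9951734, stood 107 kb from the nearest summit, and 59 fragments (44.9 to 76.1) over the floor of 3.49 gave it a fold of 13.4. On the long arm, the most isolated one, from 15846242 to 15846835, stood 124 kb apart with a fold of 5.50. On chromosome 9, the one from 13432426 to 13432896 stood 56.7 kb apart with a fold of 2.83.

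The folds of neighbours were compared by the distance between their summits, with no test. The higher fold of a pair was 1.52 times the lower on the short arm (median of 52 pairs), 1.45 times on the long arm (166) and 1.48 times on chromosome 9 (236). For neighbours farther apart, the medians were 1.59 (363 pairs), 1.48 (817) and 1.48 (878), slightly higher in each arm before rounding. In most peaks the summit lay near the middle: it fell in the middle 50% of the interval for 88.0% of the peaks on the short arm, 88.9% on the long arm and 88.0% on chromosome 9.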
